A study of Mus musculus with 9 samples.

Results

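The genes described here are 9 markers of cholinergic and cranial motor neurons, namely Chat, Slc18a3, Slc5a7, Ache, Isl1, Mnx1, Prph, Calca and Calcb, picked by name, and all 9 were found among the 17187 gene symbols of the table. Poly(A) RNA came from punches of the medullary brainstem of wild-type mice that held the raphe nuclei, taken 3 weeks after an adeno-associated virus (AAV2) was injected into the cortex. GFP libraries came from mice given AAV2-GFP, and HIL6 libraries from mice given a virus labelled AAV2-HIL6-GFP. HIL6 stands for hyper-interleukin-6, an engineered fusion of that cytokine with the soluble form of its receptor. The labels name GFP in both viruses, so HIL6 is what sets the groups apart. There were 4 GFP and 5 HIL6 libraries. Batch 1 held 3 GFP and 3 HIL6 libraries (replicates 1 to 3 of each), and batch 2 held GFP replicate 4 with HIL6 replicates 4 and 5. Neither the age or strain of the mice, nor whether a library is 1 animal or a pool, is given in the sources used here, so p-values measure only the spread between these libraries. The title of the series names spinal cord contusion, and the labels do not say whether these mice had one. Virus was placed in the cortex, and no label says which brainstem cells it reached.

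Cholinergic neurons make acetylcholine from choline and acetyl-CoA with choline acetyltransferase (Chat), load it into vesicles with the vesicular transporter (Slc18a3, also called VAChT) and take choline back up with a high-affinity transporter (Slc5a7). Acetylcholinesterase (Ache) ends the signal by splitting acetylcholine. In the medulla the largest cholinergic cells are the motor neurons of cranial nerves, which drive muscles of the tongue, throat and face or viscera. Those cells use the homeodomain factors Isl1 and, in somatic motor neurons, Mnx1, carry the intermediate filament peripherin (Prph), and release peptides of the calcitonin gene family (Calca and Calcb). Motor nuclei are compact and lie at set distances from the midline, where the raphe nuclei are.

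Levels are in FPKM, which divides the fragments of a gene by transcript length and by library size in units of 1e6, so levels of different genes can be set side by side. Depth, read from the steps between low values, lay between 31.5 and 46.7 in units of 1e6 scaled fragments. Slc18a3, which has 1 annotated transcript, then rested on about 20 fragments in GFP replicate 4, a counting error of 22.4%, and on 111 to 1220 fragments in the other 8 libraries, with errors of 9.48% to 2.86%. The tests covered the 13958 genes whose mean level reached 0.5 FPKM. Of the 9 members 7 passed this filter, and Isl1 and Mnx1, with means of 0.440 and 0.295 FPKM, did not.

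Chat and Slc18a3 form one locus on chromosome 14 of the mouse assembly GRCm38 (mm10). By GENCODE M21, Chat spans chr14:32408203-32465989 and Slc18a3 spans chr14:32462438-32464850, both on the minus strand. Slc18a3 lies inside intron 1 of the 4 Chat transcripts, of 8, that reach across it. Reads from unspliced Chat RNA could therefore be assigned to Slc18a3, and their share was not tested. Slc5a7 (chr17:54273590-54299034, minus strand) and Ache (chr5:137287519-137294466, plus strand) lie on other chromosomes. The 250 bases before the RefSeq start of these 4 genes, from the promoter table for GRCm38.p6, are shown as background. Any bearing of these sequences on the levels was not tested. Each is written 5′ to 3′ on the strand of the gene. Capitals mark CCAAT and GGGCGG on either strand, with overlapping matches counted.
Chat: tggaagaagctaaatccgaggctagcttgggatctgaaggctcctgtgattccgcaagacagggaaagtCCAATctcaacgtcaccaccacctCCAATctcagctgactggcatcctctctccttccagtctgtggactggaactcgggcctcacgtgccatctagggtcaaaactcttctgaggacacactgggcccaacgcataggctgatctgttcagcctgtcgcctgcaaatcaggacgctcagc
Slc18a3: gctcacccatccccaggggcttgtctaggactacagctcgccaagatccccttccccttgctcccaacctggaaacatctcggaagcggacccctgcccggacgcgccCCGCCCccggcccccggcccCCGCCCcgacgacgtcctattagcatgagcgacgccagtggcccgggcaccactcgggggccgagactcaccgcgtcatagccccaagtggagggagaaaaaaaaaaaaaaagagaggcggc
Slc5a7: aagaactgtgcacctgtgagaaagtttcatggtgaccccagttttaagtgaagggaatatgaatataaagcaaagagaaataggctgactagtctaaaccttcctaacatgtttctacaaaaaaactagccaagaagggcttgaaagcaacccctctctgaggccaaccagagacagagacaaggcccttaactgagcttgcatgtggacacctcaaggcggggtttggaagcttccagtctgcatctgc
Ache: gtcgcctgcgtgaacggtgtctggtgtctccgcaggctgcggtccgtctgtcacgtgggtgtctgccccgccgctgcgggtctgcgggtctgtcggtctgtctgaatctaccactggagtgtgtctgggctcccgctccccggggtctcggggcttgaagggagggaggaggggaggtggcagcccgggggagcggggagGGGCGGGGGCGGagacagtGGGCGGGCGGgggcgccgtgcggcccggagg
The windows are chr14:32465910-32466159 for Chat, chr14:32464851-32465100 for Slc18a3, chr17:54299035-54299284 for Slc5a7 and chr5:137288004-137288253 for Ache, and the Slc18a3 window lies within the Chat gene. RefSeq and GENCODE starts differ, so the Ache window lies inside the GENCODE span of Ache and the Chat window overlaps the 5′ end of that of Chat. The Chat window held 2 matches to CCAAT, that of Slc18a3 held 2 to GGGCGG, that of Ache held 4 to GGGCGG, and that of Slc5a7 held neither. Of 32851 promoter windows of this length, 33.8% held CCAAT and 32.7% held GGGCGG. GC content was 54.8%, 66.0%, 45.6% and 73.6% in the same order of genes. TAATTA, a core read by many homeodomain factors, and TGACGTCA, the cyclic AMP response element, were in none of the 4 windows and in 4.84% and 1.55% of all windows. CANNTG, the E-box, was found 2, 1, 3 and 1 times, and in 66.2% of all windows. Among the other members with a window, CCAAT was found 2 times in Isl1, 3 times in Mnx1 and 2 times in Calca, and GGGCGG was found 1 time each in Mnx1 and Prph.

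The genes of acetylcholine synthesis, loading and uptake differed far more between libraries of the same treatment than a typical gene. Chat was at 4.96, 6.95, 4.92 and 0.463 FPKM in GFP replicates 1 to 4 and at 0.866, 3.13, 1.18, 7.61 and 3.96 FPKM in HIL6 replicates 1 to 5. The lowest GFP library and the highest HIL6 library were both of batch 2, and the treatments overlapped over nearly the whole range. Within one treatment the highest library exceeded the lowest 15.0-fold among GFP and 8.79-fold among HIL6 libraries. These ranges take in both batches. In batch 1 alone Chat was at 4.92 to 6.95 FPKM in GFP and at 0.866 to 3.13 FPKM in HIL6 libraries. Slc18a3 was at 8.92, 14.1, 7.51 and 0.202 FPKM in the GFP replicates, and at 1.52, 5.62, 1.43, 10.9 and 5.57 FPKM across HIL6 replicates. Slc5a7 was at 7.89, 11.9, 7.40 and 0.618 FPKM in the GFP replicates, and at 1.22, 5.22, 1.78, 15.4 and 7.39 FPKM across HIL6 replicates. In all 3 genes GFP replicate 4 was lowest and HIL6 replicates 1 and 3 were the next. In bulk tissue, fewer cholinergic cells in a punch and less of these RNAs per cell cannot be told apart.

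**Figure D1:**
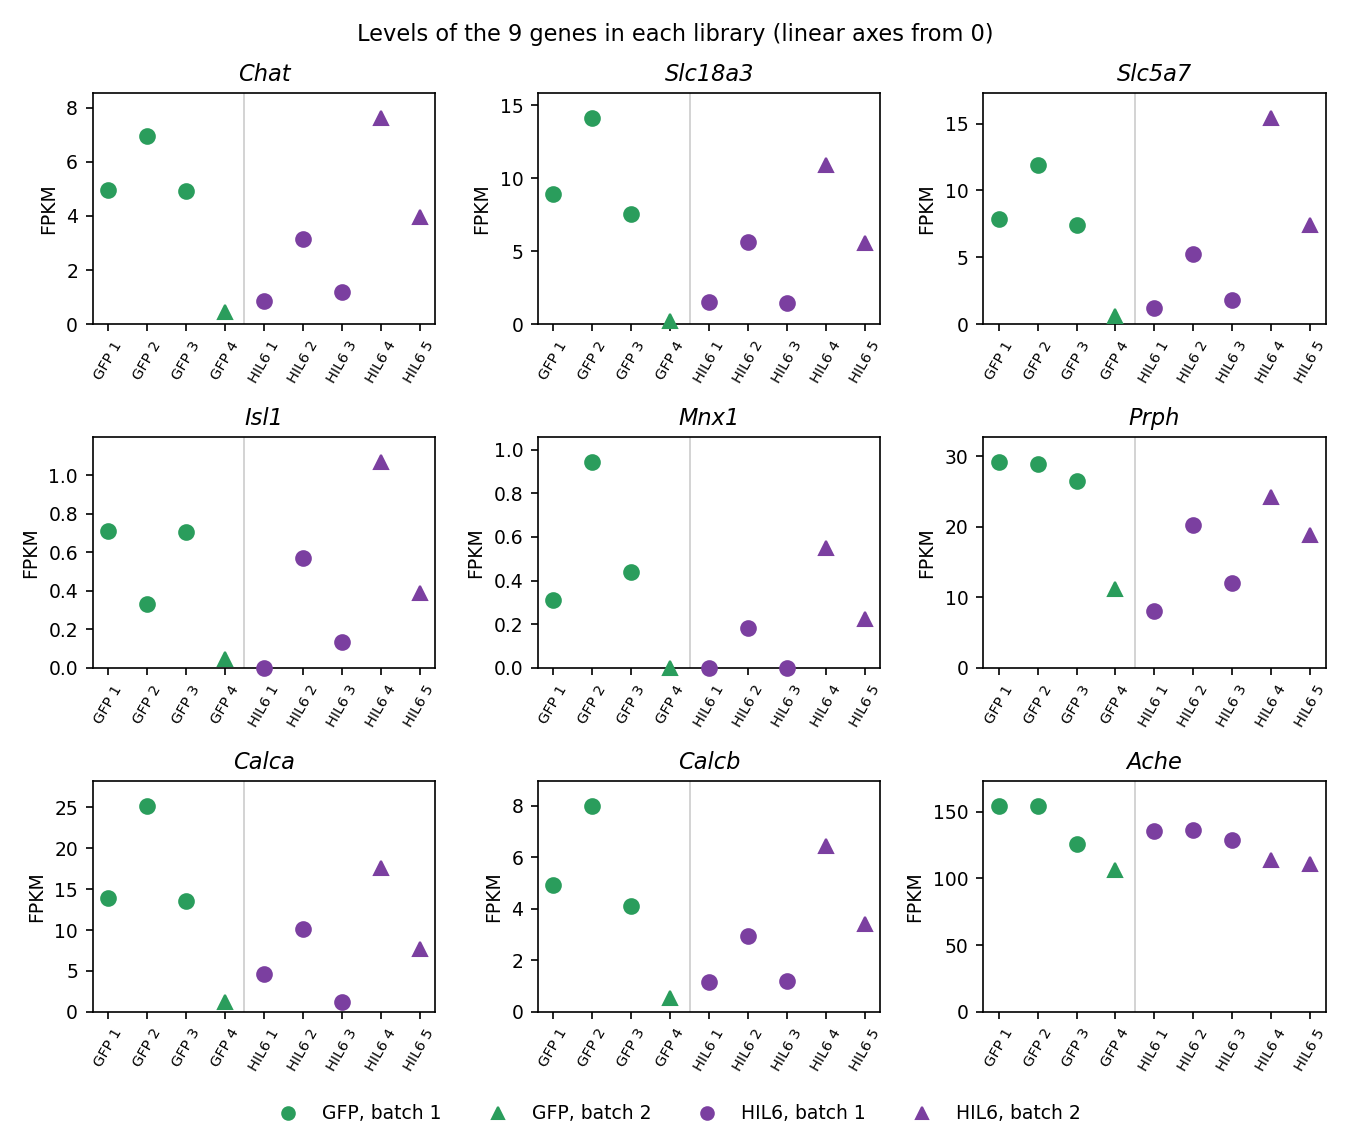
FPKM of each of the 9 genes in the 9 libraries, on linear axes that start at 0, with green for GFP, purple for HIL6, circles for batch 1 and triangles for batch 2. In every panel but that of Ache the 3 lowest points are GFP 4, HIL6 1 and HIL6 3, as for Chat at 0.463, 0.866 and 1.18 FPKM.

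Ache, which ends acetylcholine signalling, was the most abundant member and followed another order. It was at 154, 154, 126 and 107 FPKM in the GFP replicates, and at 136, 136, 129, 114 and 111 FPKM across HIL6 replicates. All 3 batch 2 libraries lay below all 6 batch 1 libraries, as in 13.4% of tested genes, at 111 ± 3.70 FPKM (SD, n = 3) against 139 ± 12.4 FPKM (SD, n = 6). The highest library exceeded the lowest 1.45-fold, against 16.4-fold for Chat. As a result the ratio of Ache to Chat ran from 15.0 in HIL6 replicate 4 to 230 in GFP replicate 4. Unlike the other enzymes and transporters here, acetylcholinesterase is also made by neurons that receive acetylcholine.

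Both motor neuron transcription factors were low, with Isl1 at or under 1.07 FPKM and Mnx1 at or under 0.943 FPKM. Isl1, a LIM homeodomain factor, was at 0.712, 0.333, 0.706 and 0.0456 FPKM in the GFP replicates, and at 0, 0.571, 0.135, 1.07 and 0.388 FPKM across HIL6 replicates. Mnx1, the factor also known as HB9, was at 0.312, 0.943, 0.440 and 0 FPKM in the GFP replicates, and at 0, 0.185, 0, 0.549 and 0.226 FPKM across HIL6 replicates. The 3 libraries in which Mnx1 was listed at 0 were the 3 lowest in Chat, and Isl1 was also lowest there. A listed 0 can be a failed estimate in such data. Isl1 differed from the other members in order, since GFP replicate 2, the second highest in Chat, was the lowest of the remaining 6 in Isl1. Isl1 is also made in the pituitary, and pituitary hormone RNA was present in some punches. Growth hormone (Gh) was at 40.2 and 18.5 FPKM in GFP replicate 1 and HIL6 replicate 4, the 2 libraries highest in Isl1. It was at 4.53 and 1.98 FPKM in GFP replicate 2 and HIL6 replicate 1, and at 0 to 0.127 FPKM in the other 5. Among those 5, GFP replicate 3 had Gh at 0 with Isl1 at 0.706 FPKM, close to the 0.712 FPKM of GFP replicate 1. HIL6 replicate 1, with some Gh, had Isl1 at 0. The part of pituitary tissue in the Isl1 values was not tested.

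Peripherin and the peptide genes followed Chat. Prph was at 29.2, 28.9, 26.5 and 11.2 FPKM in the GFP replicates, and at 8.01, 20.3, 12.1, 24.3 and 18.9 FPKM across HIL6 replicates, a narrower range than that of Chat. Calca, which encodes calcitonin and, by alternative splicing, the peptide CGRP, was at 13.9, 25.2, 13.6 and 1.14 FPKM in the GFP replicates, and at 4.59, 10.1, 1.24, 17.6 and 7.72 FPKM across HIL6 replicates. Its paralog Calcb, the gene of the second CGRP, was at 4.94, 8, 4.09 and 0.520 FPKM in the GFP replicates, and at 1.16, 2.93, 1.21, 6.45 and 3.41 FPKM across HIL6 replicates. Each of the 3 genes had its 3 lowest values in GFP replicate 4 and HIL6 replicates 1 and 3. Calca exceeded Calcb in every library, by 1.03-fold in HIL6 replicate 3 and by 2.19-fold to 3.94-fold in the others. Calca (chr7:114631478-114636357, minus strand) and Calcb (chr7:114718643-114723365, plus strand) are near neighbours with similar sequences, so the split of fragments between them is uncertain.

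Prph and Calca are also made by sensory neurons of cranial ganglia. Of 8 markers of peripheral sensory neurons 4 were in the table, and their summed level ran from 2.24 to 5.19 FPKM in GFP and from 2.21 to 3.11 FPKM in HIL6 libraries. Scn11a, a sodium channel of pain-sensing neurons, was at 0 to 0.0797 FPKM. The part of such neurons in the Calca values was not tested. Tbx20, a T-box factor of cranial motor neurons, was low, at 0.0129 to 0.190 FPKM. It was lowest in the libraries lowest in Chat, at 0.0129 and 0.0134 FPKM in HIL6 replicates 3 and 1 and 0.0135 FPKM in GFP replicate 4. Elsewhere it was at 0.0378 to 0.190 FPKM.

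The spread between libraries of the same treatment, as the SD of log2(FPKM + 0.5), had a median of 0.17 over the 13958 tested genes. It was 1.54 for Slc18a3, 1.5 for Calca, 1.43 for Slc5a7, 1.19 for Chat, 1.09 for Calcb and 0.64 for Prph. For Slc18a3 and Calca 99.8% of tested genes had a smaller spread, for Slc5a7 99.7%, for Chat 99.5%, for Calcb 99.4% and for Prph 97.8%. Ache, at 0.20, stood above 62.0% of them. Batches were not separated in this spread.

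**Figure D2:**
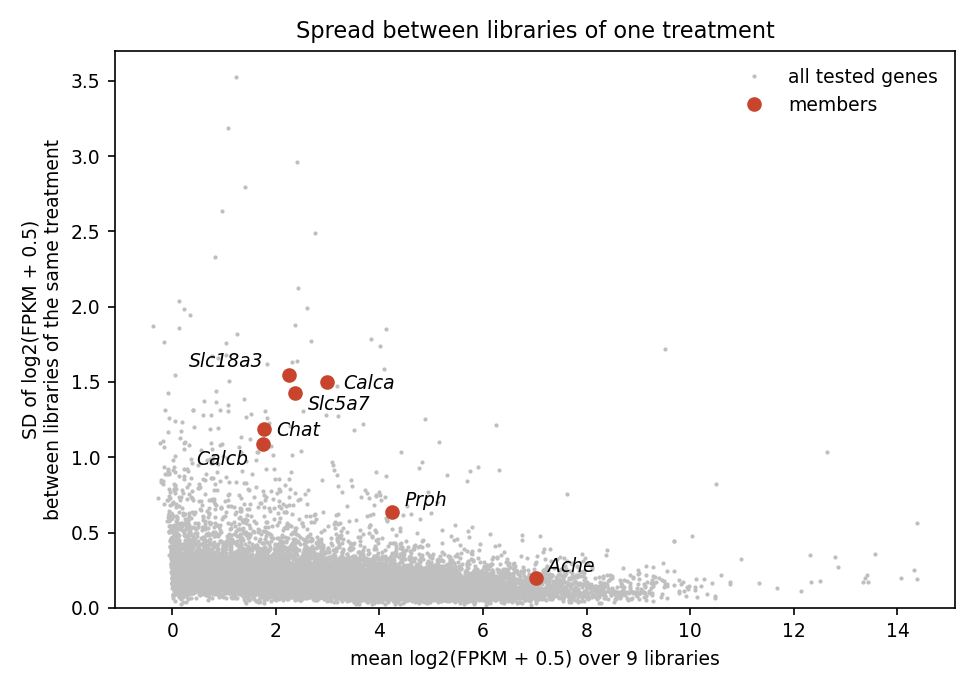
Spread between libraries of the same treatment (SD of log2(FPKM + 0.5), y axis) against mean level (log2(FPKM + 0.5), x axis) for all 13958 tested genes in grey and the 7 tested members in red. Slc18a3, Calca, Slc5a7, Chat and Calcb sit between 1.09 and 1.54, well above the grey band, and Ache at 0.20 lies within it.

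All members but Ache shared their 3 lowest libraries. GFP replicate 4 and HIL6 replicates 1 and 3 were lowest in Chat, Slc18a3, Slc5a7, Isl1, Mnx1, Prph, Calca and Calcb, and 0.559% of tested genes had all 3 of these libraries below the other 6. Slc5a7 had the same order as Chat in all 9 libraries. Its ratio to Chat stayed between 1.33 and 2.02, a 1.52-fold range, while Chat itself varied 16.4-fold and Slc5a7 24.9-fold. The ratio of Slc18a3 to Chat was 0.436 in GFP replicate 4 and 1.21 to 2.02 in the other 8 libraries. The ratio of Prph to Chat was higher in the low libraries, at 24.2 in GFP replicate 4, 10.2 and 9.25 in HIL6 replicates 3 and 1, and 3.20 to 6.49 in the other 6.

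Correlations with Chat over the 9 libraries, on the log2(FPKM + 0.5) scale, measured how far the members moved together. All 9! arrangements, 362880 in number, gave exact two-sided p-values, adjusted by Benjamini and Hochberg over the 13957 other tested genes. Only 2 of these genes, or 0.0143%, passed in the positive direction and none in the negative, with 147 and 95 at an unadjusted p under 0.05. Slc5a7 was one of the 2, with Pearson r = 0.997 (exact p = 2.76e-06, the smallest these arrangements can give, adjusted p = 0.0192) and Spearman rho = 1.00 (exact p = 5.51e-06). Calcb had r = 0.988 (exact p = 1.38e-05, adjusted p = 0.0641) and rho = 0.983 (exact p = 4.96e-05). Slc18a3 had r = 0.981 (exact p = 4.13e-05, adjusted p = 0.144) and rho = 0.950 (exact p = 0.000353). By r, Slc5a7, Calcb and Slc18a3 ranked 1, 2 and 3 among all tested genes. Calca had r = 0.927 (exact p = 0.000711, adjusted p = 0.636) and rho = 0.950 (exact p = 0.000353), at rank 8, and Prph r = 0.923 (exact p = 0.00144, adjusted p = 0.991) and rho = 0.85 (exact p = 0.00607), at rank 10. Isl1 and Mnx1, under the filter, had r = 0.872 and 0.913 (exact p = 0.00324 and 0.000595) and rho = 0.8 and 0.949 (exact p = 0.0138 and 0.000430), with no adjusted value. Ache had r = 0.319 (exact p = 0.395) and rho = 0.333 (exact p = 0.385).

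The libraries did not spread evenly in Chat. The widest gap, 1.11 on the log2 scale, lay between HIL6 replicate 3 and HIL6 replicate 2, and the next widest, between GFP replicate 4 and HIL6 replicate 1, was 0.504. Without GFP replicate 4 and HIL6 replicate 1, the 2 libraries farthest from the median, r over the other 7 was 0.990 for Slc5a7, 0.979 for Calcb, 0.978 for Slc18a3, 0.959 for Calca, 0.907 for Mnx1, 0.899 for Prph, 0.713 for Isl1 and 0.085 for Ache. Among the 6 libraries above the gap r was 0.966, 0.947, 0.917, 0.846, 0.865, 0.641, 0.307 and 0.060 in the same order, so the relations of Isl1 and Prph rest more on the low libraries. Within the 6 libraries of batch 1 r was 0.998, 0.983, 0.989, 0.892, 0.931, 0.977, 0.806 and 0.531. Batch 2 holds 3 libraries, too few for a correlation. Among the 28 pairs of members without Ache, r ran from 0.680 to 0.997 with a median of 0.903, and among the 8 pairs with Ache from 0.096 to 0.466.

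**Figure D3:**
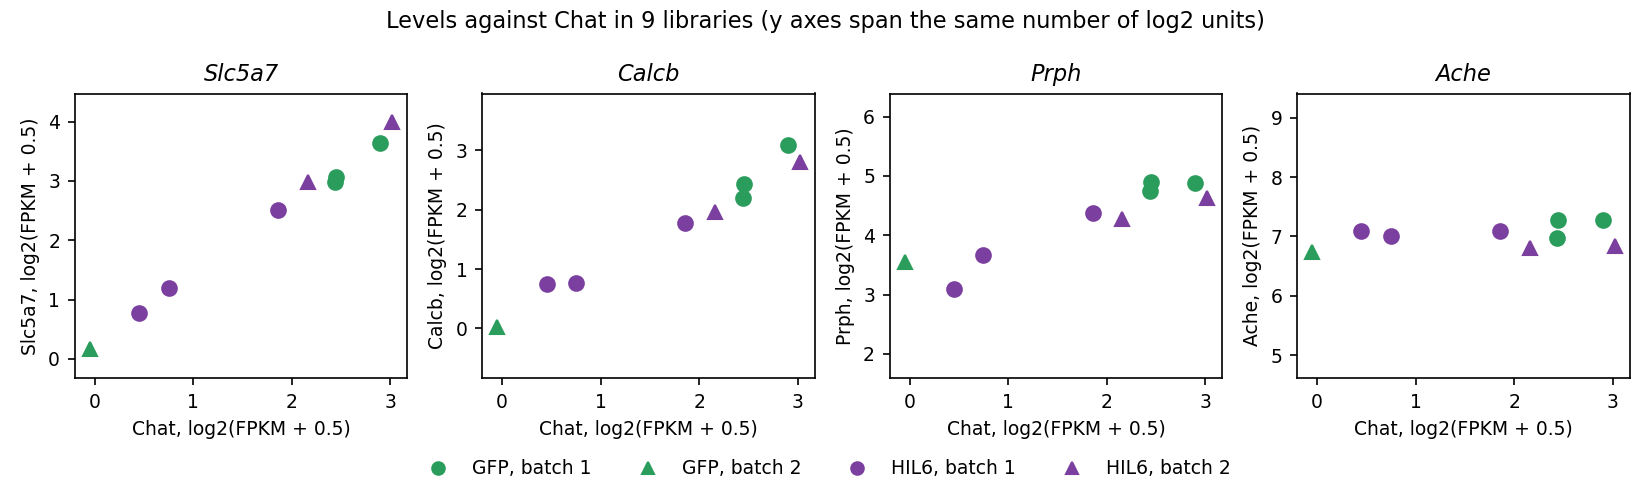
Levels of Slc5a7, Calcb, Prph and Ache (y axes, each spanning the same number of log2 units) against Chat (x axis) in the 9 libraries, both as log2(FPKM + 0.5). Slc5a7 and Calcb rise along a line with r = 0.997 and 0.988, Prph rises less steeply, and Ache is flat with r = 0.319.

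The genes outside the 9 with the closest pattern, by r over the same 9 libraries, were Kcnj14 (0.967), Stk32a (0.960), Nkx6-3 (0.938), Insl6 (0.933), Gna14 (0.926), Anxa2 (0.923), Hoxc4 (0.921) and Chodl (0.917). Of these Hoxc4 passed adjustment over all genes (exact permutation, adjusted p = 0.0192, rho = 1.00), and the other 7 did not, with adjusted p of 0.269 to 0.636. Kcnj14 encodes an inwardly rectifying potassium channel known in rat from cranial motor nuclei, and was at 7.80, 8.44, 6.30 and 3.36 FPKM in the GFP replicates, and at 4, 5.71, 3.60, 7.74 and 5.80 FPKM across HIL6 replicates. Chodl, chondrolectin, which marks fast motor neurons in the mouse spinal cord, was at 4.30, 5.39, 3.31 and 1.79 FPKM in the GFP replicates, and at 0.991, 3.58, 1.77, 6.21 and 2.94 FPKM across HIL6 replicates. Both were lowest in the 3 libraries that were lowest in Chat. Hoxc4, a Hox gene of the caudal hindbrain and cervical cord, was at 10.4, 11.4, 9.81 and 4.51 FPKM in the GFP replicates, and at 7.46, 9.16, 8.14, 11.7 and 9.68 FPKM across HIL6 replicates, in the same order of libraries as Chat. At the other end of the ranking Ldoc1, 6330416G13Rik, Tcf7l2 and Aste1 had r = -0.884, -0.874, -0.871 and -0.871 and did not pass (exact permutation, adjusted p = 0.636 for Ldoc1 and 1 for the others).

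Motor neuron effector genes beyond the members followed Chat in part. Of 15 such genes tested, 3 had r of at least 0.85, namely Chodl, Vipr2 and Uts2b, against 0.208% of all tested genes, and the median r of the 15 was 0.15. The list was chosen with earlier results of these data known, so this comparison does not test it. Vipr2, a receptor for vasoactive intestinal peptide, was at 0.106 to 1.11 FPKM, and Uts2b, urotensin 2B, at 0.715 to 3.90 FPKM. The neurofilament genes, which many other neurons express, had r of -0.377 to 0.298. Ret, the receptor of GDNF family ligands, also expressed by many other neurons, had r = 0.794, and Gfra1 had r = 0.725, both under 0.85. None of the 12 tested motor neuron transcription factors, 8 acetylcholine receptor genes or 5 other genes of acetylcholine handling reached 0.85, with median r of 0.14, -0.16 and -0.13. The highest r in these lists was 0.65, 0.30 and 0.80, the last for Acly.

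Serotonergic genes, the markers of the raphe nuclei at which the punches were aimed, took another course. Tph2, the enzyme of serotonin synthesis in neurons, was at 50, 21.7, 43.2 and 44.6 FPKM in the GFP replicates, and at 11.9, 46.5, 44.4, 41.1 and 29.8 FPKM across HIL6 replicates. GFP replicate 4 and HIL6 replicate 3, low in Chat, were not low in Tph2, whereas HIL6 replicate 1 was low in both and GFP replicate 2 was high in Chat and low in Tph2. The 5 serotonergic genes had r with Chat between 0.17 and 0.20. Summed skeletal muscle markers were at 5.27 to 12.8 FPKM in GFP and 2.15 to 9.58 FPKM in HIL6 libraries, most of it Mylpf, a fast muscle myosin light chain, and Myh2 was at 0.00506 to 0.0477 FPKM. The sum was 6.0 to 12.8 FPKM in the 3 libraries lowest in Chat and 2.15 to 7.75 FPKM in the other 6, and its part in the result was not tested.

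**Figure D4:**
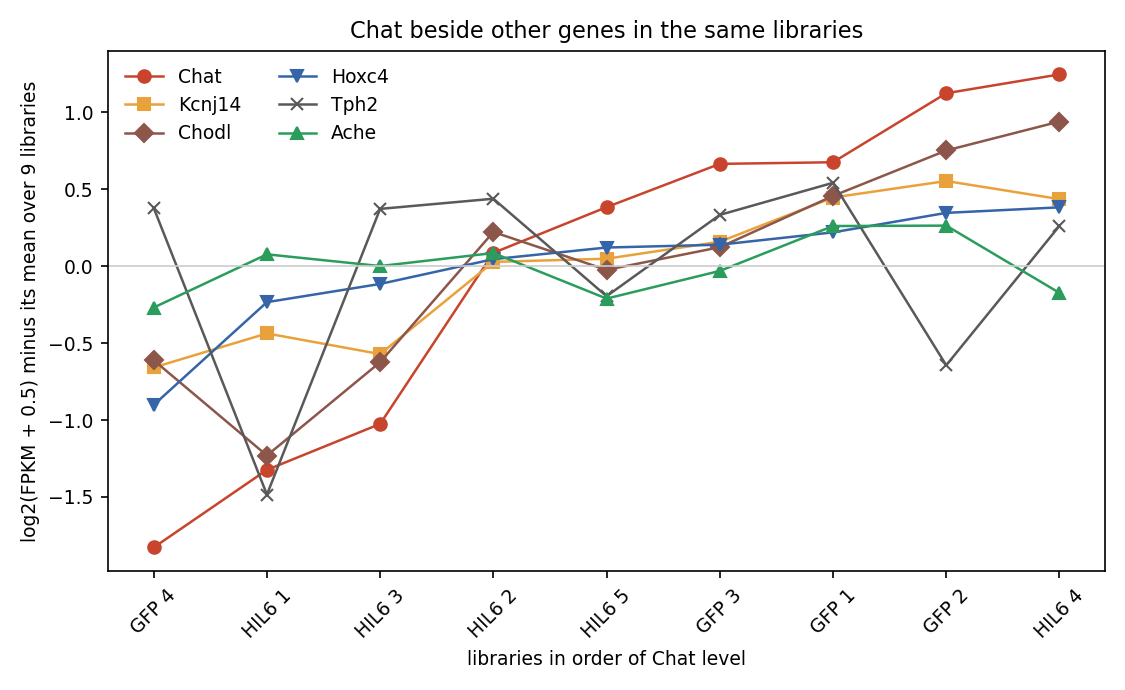
Log2(FPKM + 0.5) of 6 genes minus its mean over the 9 libraries (y axis), with libraries ordered from lowest to highest Chat (x axis). Chodl, Kcnj14 and Hoxc4 climb with Chat, Ache stays near 0, and Tph2 drops in HIL6 1 and GFP 2, where it was at 11.9 and 21.7 FPKM.

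The comparison of HIL6 with GFP asks whether cytokine delivery to the cortex went with a change of these genes in the brainstem. With both batches in the fit, 0 of the 7 tested members passed, as did 0% of all genes, so that count says nothing particular of the members. This fit averages over batches in which the members went opposite ways, as given further on. Mean levels of the 4 GFP and the 5 HIL6 libraries, each with its SD, were 4.33 ± 2.74 and 3.35 ± 2.71 FPKM for Chat, 7.68 ± 5.73 and 5.01 ± 3.89 FPKM for Slc18a3, and 6.97 ± 4.70 and 6.20 ± 5.73 FPKM for Slc5a7. Prph was at 24.0 ± 8.57 and 16.7 ± 6.57 FPKM, Calca at 13.5 ± 9.84 and 8.24 ± 6.19 FPKM, Calcb at 4.39 ± 3.08 and 3.03 ± 2.16 FPKM, and Ache at 135 ± 23.3 and 125 ± 12.0 FPKM. By limma with batch as a term, log2 fold changes of HIL6 over GFP on the log2(FPKM + 0.5) scale were -0.28 ± 0.69 (SE) for Chat, -0.18 ± 0.88 for Slc18a3, -0.18 ± 0.82 for Slc5a7, -0.51 ± 0.37 for Prph, -0.45 ± 0.85 for Calca, -0.30 ± 0.63 for Calcb and -0.052 ± 0.070 for Ache. Every one was smaller than 2 of its standard errors, and limma's adjusted p was 0.999 for each. Over all 9 libraries the groups overlapped in every member, while HIL6 was below GFP without overlap in 0.229% of genes and above in 0.53%. Of all 13958 genes 0 passed (0% called), with 543 at an unadjusted p under 0.05. Permuting treatment within batches over 60 arrangements gave exact two-sided p-values of 0.283 (Prph) to 0.883 (Slc18a3) for the 9 members. The direction of Chat, Slc18a3, Slc5a7, Isl1, Calca and Calcb turned positive on leaving out single libraries, with Chat at 0.029, 0.12 and 0.018 without GFP replicate 2, HIL6 replicate 1 and HIL6 replicate 3. Without GFP replicate 4 Chat was at -1.58, and with weights per library all 9 members turned positive, Chat to 1.03 and Slc18a3 to 1.48, again with 0 members passing.

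Within batches the picture was split. In batch 1 every HIL6 library was below every GFP library in 7 of the 9 members, Chat, Slc18a3, Slc5a7, Mnx1, Prph, Calca and Calcb. The 6 tested ones among the 7 tested members stand against 2.84% of all tested genes. The members varied together, with a median r of 0.903 among pairs without Ache, so these are not 6 separate results. Chat averaged 5.61 ± 1.16 FPKM over the 3 GFP libraries of batch 1 and 1.73 ± 1.23 FPKM over its 3 HIL6 libraries (SD), a ratio of 3.25. Slc18a3, Slc5a7, Calca and Calcb were 3.56-fold, 3.32-fold, 3.32-fold and 3.21-fold lower in HIL6 by their means, and Prph 2.09-fold. Fitted on batch 1 alone, the log2 fold changes were -1.58 ± 0.34 (SE) for Chat, -1.84 ± 0.44 for Slc18a3, -1.74 ± 0.41 for Slc5a7, -1.13 ± 0.28 for Prph, -1.93 ± 0.58 for Calca and -1.48 ± 0.32 for Calcb. By limma none passed over all 13989 genes tested there, with unadjusted p of 0.00172 to 0.0103 and adjusted p of 1, and 0 of all genes passed (0%, 399 at an unadjusted p under 0.05). Marker genes of some other cells were also below 0 in this contrast. All 3 tested pituitary genes were below 0 in batch 1 (median log2 fold change -2.0) and above 0 in the interaction described next (median 4.28), none of them called. Their list, with 5 of 9 genes in the table, summed to 78.9, 7.57 and 0.471 FPKM in GFP and 5.05, 1.2 and 0.729 FPKM in HIL6 libraries of batch 1, which overlap, and to 0.782 against 32.0 and 0.390 FPKM in batch 2. All 5 serotonergic genes were below 0 in batch 1 (median -0.35), and 3 were above 0 and 2 below in the interaction (median 0.016). None was called, and Tph2 overlapped in batch 1, at 50, 21.7 and 43.2 FPKM in GFP and 11.9, 46.5 and 44.4 FPKM in HIL6. All 4 tested choroid plexus and ependyma genes were below 0 in batch 1 (median -0.39), none called. In the interaction 3 of them were above 0 and 1 below (median 0.081). The part of these cells in the result was not tested. In Isl1 and Ache the groups overlapped, with Ache at 145 ± 16.4 and 134 ± 4.30 FPKM.

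In batch 2 the order was the opposite. The single GFP library was below both HIL6 libraries in all 9 members, as in 32.3% of all tested genes, and 0 members had the reverse order, found in 35.8%. Chat had 0.463 FPKM in that library against 7.61 and 3.96 FPKM in the HIL6 pair. Slc18a3 was at 0.202 against 10.9 and 5.57 FPKM, and Prph at 11.2 against 24.3 and 18.9 FPKM. The pattern of HIL6 lower in batch 1 and higher in batch 2, with no overlap in either, held in 7 of the 9 members, and in 0.982% of all tested genes. The mirror pattern held in 0 members and in 0.838% of genes. As the members varied together, these counts are not of separate results.

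**Figure D5:**
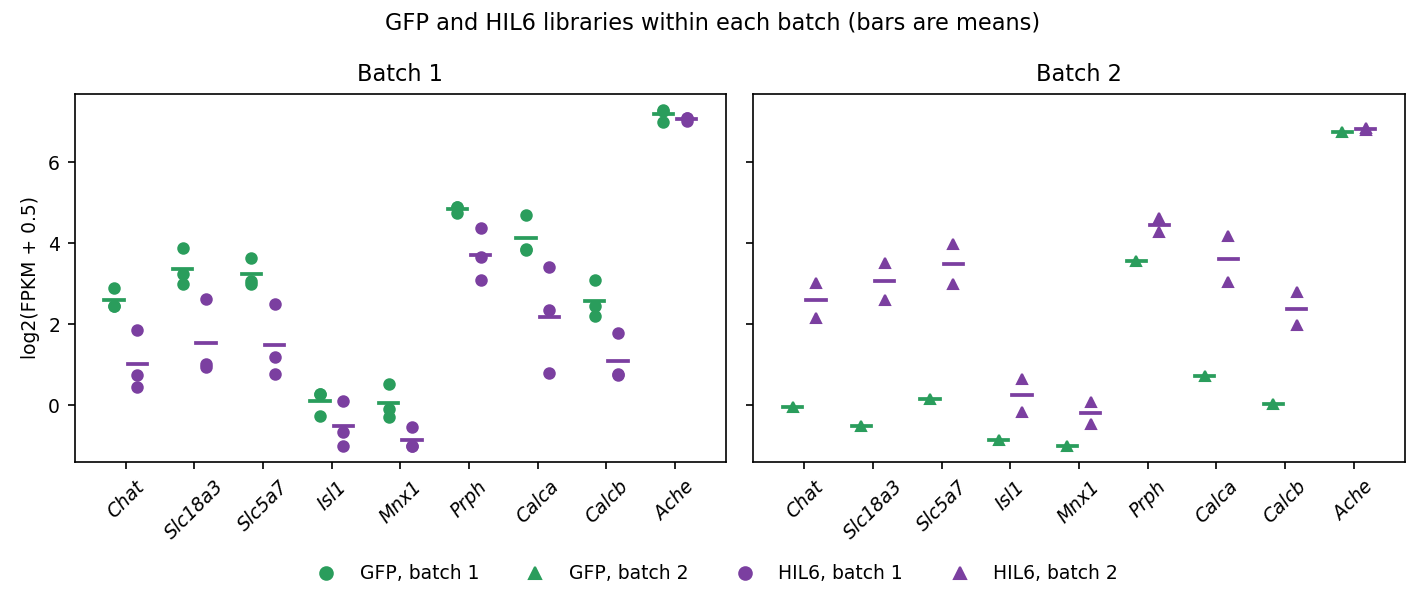
Log2(FPKM + 0.5) of the 9 genes in GFP (green) and HIL6 (purple) libraries of batch 1 (left) and batch 2 (right), with bars at the means. HIL6 lies below GFP for Chat and its companions on the left and above the single GFP library on the right, while Ache hardly moves.

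The treatment by batch interaction, which tests that reversal, was large and did not pass over all genes. As the log2 difference of HIL6 and GFP in batch 2 minus that in batch 1, it was 4.22 ± 0.65 (SE) for Chat, 5.41 ± 0.81 for Slc18a3, 5.06 ± 0.78 for Slc5a7, 3.83 ± 0.62 for Calcb, 4.83 ± 1.06 for Calca and 2.04 ± 0.48 for Prph. Each was over 4 of limma's moderated standard errors, which draw the spread of a gene toward that of genes of similar level. Standard errors from the spread of each gene alone were not computed. Adjusted p by limma was 0.195 for Chat, Slc18a3 and Slc5a7, 0.249 for Calcb, 0.821 for Calca and 1 for Prph, with 0.0143% of genes called. Without HIL6 replicate 2, Chat, Slc18a3 and Slc5a7 passed by limma (adjusted p = 0.0357 each). The interaction rests on GFP replicate 4, the 1 GFP library of batch 2, without which it could not be fitted, so batch 2, treatment and that library cannot be told apart.

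Batch itself went with Ache. Its batch 2 minus batch 1 difference was -0.32 ± 0.074 (SE) on the log2 scale, and it fell by limma (adjusted p = 0.0167), among the 11.1% of genes called lower in batch 2 and 22.5% called in either direction. Without GFP replicate 4 the difference was -0.25 with an adjusted p of 0.155 by limma. Prima1, the membrane anchor of acetylcholinesterase in brain, also fell, at 20.7, 23.6 and 18.1 FPKM in GFP and 24.5, 21.4 and 20.4 FPKM in HIL6 libraries of batch 1 against 13.5, 15.5 and 14.9 FPKM in batch 2 (limma log2 difference -0.55 ± 0.089, adjusted p = 0.00589). None of the other 6 tested members passed, with adjusted p of 0.705 to 0.978. In batch 2 depth was 38.5 to 46.7 and in batch 1 31.5 to 38.5 in units of 1e6 scaled fragments, and the part of depth in this difference was not tested.

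Other genes of the same systems did not pass in HIL6 against GFP, and each list is given without the members. Of 5 other genes of acetylcholine handling 4 were above 0 and 1 below, with a median log2 fold change of 0.12 against -0.0026 over all genes. Slc44a1, a choline transporter, and Colq, the collagen tail of acetylcholinesterase, had the smallest p, with log2 fold changes of 0.22 and 0.30. Of 8 acetylcholine receptor genes 2 were above 0 and 6 below (median -0.070), with Chrna7 at -0.17 and Chrm3 at 0.23. Of 12 motor neuron transcription factors 5 were above 0 and 7 below (median -0.048), with Nkx6-1 at -0.22 and Onecut2 at -0.17. Of 15 motor neuron effectors 5 were above 0 and 10 below (median -0.091), with Nefm at -0.14 and Sncg at -0.19. Of 7 genes induced by motor neuron injury 1 was above 0 and 6 below (median -0.043), with Adcyap1 at -0.37 and Gap43 at -0.20. Adjusted p by limma was 0.999 for each gene named here.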

How the data were processed

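RNA levels of 9 libraries came from a single table of FPKM values that the authors deposited, in which each library has its own column. Per the labels' protocols, tissue was kept in a stabilising solution, RNA was purified on columns and libraries were made with a strand-specific poly(A) kit. The submitters' processing notes name kallisto, DESeq2 and mm10, while versions, settings and library scaling are not given in these sources. Values were turned into log2(FPKM + 0.5), which understates fold changes of low genes, and genes with a mean under 0.5 FPKM were left out. HIL6 against GFP, batch and their interaction were fitted with limma 3.58.1 in R 4.3.3 on all 9 libraries (mean-variance trend, two-sided, Benjamini-Hochberg over all genes, threshold 0.05). The procedure was tested on simulated data. Every SE of a log2 fold change is limma's moderated one, which draws the spread of a gene toward that of genes of similar level. Depth came from genes with 1 annotated transcript, whose low values were whole multiples of a step within 0.05 for 96.8% to 98.4% of values. These give relative depth, FPKM of genes with several transcripts give no counts, and no count test was run. Counting errors cover counting only. GENCODE M21 held 16429 of the 17187 symbols, and 8 of the 9 members, all but Calcb, had a RefSeq promoter. No 2 libraries held identical values.

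The members and lists were chosen with earlier results of these data known. Named genes were the 9 members, the genes of each pathway list past the threshold or else the 2 with the smallest p, and the 8 genes with the highest and 4 with the lowest r to Chat. Markers of other cells were named where their values stand beside a result, and Vipr2, Uts2b, Ret, Gfra1, Acly and Tbx20 were chosen after their values were seen. Deviations of same-numbered GFP and HIL6 libraries from their group means correlated at 0.133, 0.143, 0.269 and 0.457 for numbers 1 to 4, over the 0.1 set for pairing. The labels say nothing of shared animals or days, and number 4 is also shared by batch. Alternatives were other pseudocounts and filters, another scaling, no batch term, batch 1 alone, the replicate number as a block, weights per library, permutation within batches and leaving out each library. Some withheld items are not reported here.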

Additional observations from a re-analysis of the deposited data

Results flagged for a closer look

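Prph in GFP replicate 4, at 11.2 FPKM, stood apart from the other GFP libraries at 26.5 to 29.2 FPKM, with a gap of 0.847 of the range of the group, above the critical value of Dixon's test for 4 samples. Chance flags about 1 in 20 groups. The test was run on every member in each treatment, with both batches pooled, and this was the only flag. GFP replicate 4 is the only GFP library of batch 2, so that library and the batch cannot be told apart.

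HIL6 libraries were all below GFP libraries in batch 1 and all above in batch 2 for 7 members, which varied together between libraries. The difference of HIL6 and GFP in batch 2 minus that in batch 1, on the log2(FPKM + 0.5) scale, was 4.22 for Chat, 5.41 for Slc18a3, 5.06 for Slc5a7, 4.83 for Calca, 3.83 for Calcb, 2.04 for Prph and 1.70 for Mnx1. By limma none of the 6 tested ones passed over all genes, with adjusted p of 0.195 to 1, and Mnx1 was under the filter. Batch 2 holds 1 GFP library, so that library and the batch cannot be told apart.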

How the results depend on the processing

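In HIL6 against GFP 0 of 7 tested members passed by limma under every alternative run. Directions were not stable. Weights per library turned all 9 members positive, to 1.03 for Chat, 1.48 for Slc18a3, 1.39 for Slc5a7, 0.35 for Isl1, 0.10 for Mnx1, 0.12 for Prph, 1.04 for Calca, 0.90 for Calcb and 0.0029 for Ache on the log2 scale, and a pseudocount of 0.1 turned Slc18a3 to 0.041. The cause was not tested. Leaving out each library in turn gave log2 fold changes of -1.58 to 0.12 for Chat, -1.84 to 0.27 for Slc18a3, -1.74 to 0.30 for Slc5a7, -0.61 to 0.16 for Isl1, -0.89 to -0.13 for Mnx1, -1.13 to -0.21 for Prph, -1.93 to 0.23 for Calca, -1.48 to 0.052 for Calcb and -0.11 to -0.011 for Ache, each lowest without GFP replicate 4, where batch 2 is left with HIL6 libraries and the estimate equals that of batch 1. With the replicate number as a block, in which HIL6 replicate 5 has no partner and does not contribute, Chat was at -0.41 and 0 members passed, and the block, run for HIL6 against GFP only, changed no call there. By batch, 0 to 1 members passed on leaving out libraries, and Ache was at -0.35 to -0.25, lost (adjusted p = 0.155 by limma) without GFP replicate 4. By interaction, 0 to 3 members passed, 3 without HIL6 replicate 2. The median r of the other 8 members with Chat was 0.92, at 0.92 to 0.96 on leaving out single libraries and 0.86 among the 6 libraries above 3 FPKM of Chat, a subset chosen after seeing the data. With 1 GFP library in batch 2 and 20 fragments of Slc18a3 in it, values there are the least precise.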
